A study of Mus musculus with 8 samples.

Results

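Melanocyte pigment genes were measured in RNA of sorted tumor-associated macrophages (TAMs) from B16F10 melanoma tumors. The set was 9 genes picked by name, Tyr, Tyrp1, Dct, Mlana, Pmel, Slc45a2, Gpr143, Sox10 and Trpm1, of the 23412 genes in the count table, and all 9 had counts and entered every test. All recipients were male C57BL/6 (B6) mice, aged 8 to 10 weeks when the tumor cells were placed under the skin. Thiostrepton, a thiopeptide antibiotic, or its solvent DMSO was given 6 and 12 days later, and TAMs were sorted on day 18 with the gate CD45+, F4/80+, CD11b+ and Gr-1-. The groups were DMSO (libraries DMSO1 and DMSO2), thiostrepton by intraperitoneal injection (IP1 to IP4) and thiostrepton by tumor-adjacent, subcutaneous injection at 20 mg/kg (IS1 and IS2). Each library came from the TAMs of 1 mouse. The sources used here did not give the I.P. dose of these mice or the route of the DMSO.

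Pigment cells make melanin inside melanosomes. Tyrosinase (Tyr) starts the pathway from tyrosine, and the related enzymes Tyrp1 and Dct act on later intermediates. Pmel builds the fibrils on which melanin is laid down, Mlana is a melanosome protein that assists Pmel, Slc45a2 and Gpr143 are membrane proteins of the melanosome, Trpm1 is a cation channel, and Sox10 is a neural crest transcription factor that acts with MITF, the regulator of the lineage. B16F10 is a pigmented mouse melanoma line that uses this program, whereas macrophages are not known to make melanin.

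The label of the sorted cells was checked against macrophage markers. The 12 markers summed to 27942 (IP4) to 41877 (IS2) CPM (read counts scaled to library size, with TMM factors), with Lyz2, the lysozyme of macrophages, at 13322 to 25057 CPM and the complement genes C1qb and C1qc at 3798 to 8196 and 2537 to 4808 CPM. The 9 pigment genes took between 0.0464% (IP3) and 0.293% (IS1) of all counts in libraries of 14127506 to 17577466 counts. At this depth a count of 3, used as the floor, was 0.169 to 0.219 CPM. In such bulk samples fewer cells of a type and less RNA per cell cannot be told apart, and tumor cells within the gate and tumor RNA held by macrophages cannot be told apart either.

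Promoter sequence was available for 4 of the 9 genes (Tyr, Tyrp1, Dct and Trpm1, the last with 2 starts), from RefSeq on GRCm38.p6. The 4 stretches below are shown because all 4 genes hold the letters CATGTG, the core of the M-box that MITF binds, in the 250 bases before a start. These genes differed widely in how much they varied between libraries, and a link of that to the letters was not tested. Capitals mark CATGTG, each stretch is written 5′ to 3′ on the gene's strand, and the positions are chr7:87493516-87493545 (Tyr, minus strand), chr4:80834155-80834184 (Tyrp1, plus strand, within an annotated Tyrp1 exon), chr14:118052379-118052408 (Dct, minus strand) and chr7:64153682-64153711 (Trpm1 start 1, plus strand).
Tyr: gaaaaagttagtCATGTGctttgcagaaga
Tyrp1: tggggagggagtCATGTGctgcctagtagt
Dct: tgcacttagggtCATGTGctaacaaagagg
Trpm1: ccaaatcctcatCATGTGcccaccccaaac
In each stretch a T precedes the core. TCATGTG or its reverse complement CACATGA occurred in 3.25% of the 32851 promoters of the table over the same length, and CATGTG or CACATG in 12.3%. Counted per gene with any start, as for the 4 genes here, the shares were 3.72% and 13.8% of 27025 genes.

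The full upstream windows of Tyr and Dct are printed because they carry the gene that varied least and a gene that varied by up to 10.1-fold. The window of Tyr (chr7:87493513-87493762, minus strand, no annotated exon) had CATGTG at 21 to 16 bases before the start and none of the letters ACAAAG. That core of a SOX site, with its reverse complement CTTTGT, was found in 16.5% of all promoters and was sought on both strands. The window of Dct (chr14:118052247-118052496, minus strand, no annotated exon) had CATGTG at -150 to -145, CACATG at -232 to -227, and ACAAAG at -192 to -187 and at -141 to -136. Capitals mark these letters.
Tyr upstream: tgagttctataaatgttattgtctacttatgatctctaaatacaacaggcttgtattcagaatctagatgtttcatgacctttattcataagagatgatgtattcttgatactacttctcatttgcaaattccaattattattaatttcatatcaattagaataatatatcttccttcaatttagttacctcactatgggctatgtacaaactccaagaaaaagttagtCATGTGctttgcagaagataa
Dct upstream: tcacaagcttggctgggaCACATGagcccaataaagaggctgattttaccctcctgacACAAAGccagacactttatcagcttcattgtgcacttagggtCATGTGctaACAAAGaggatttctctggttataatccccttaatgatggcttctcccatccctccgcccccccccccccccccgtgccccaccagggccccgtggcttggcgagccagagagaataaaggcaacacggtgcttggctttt
The window of Tyrp1 also held CTTTGT at -190 to -185, and that of Trpm1 start 2 held CACGTG, an E-box found in 6.02% of promoters, at -229 to -224. Neither window of Trpm1, which varied by 15.5-fold, held ACAAAG or CTTTGT. A match describes the letters of a window and is not a site of binding, and a link between these letters and the spread was not tested.

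The 9 genes together were at 624 CPM in DMSO1, 693 in DMSO2, 539 in IP1, 1042 in IP2, 460 in IP3, 1757 in IP4, 3115 in IS1 and 737 in IS2. The 2 DMSO libraries were close to each other, whereas the treated libraries ran from below both of them (IP1, IP3) to 4.73 times their mean (IS1). Group means were 659 ± 48.5 (SD, n = 2) for DMSO, 949 ± 597 (n = 4) for IP and 1926 ± 1682 (n = 2) for IS. IS1 exceeded IS2 by 4.23-fold and IP4 exceeded IP3 by 3.82-fold, so libraries of 1 treatment differed by more than the group means did from DMSO.

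**Figure D1:**
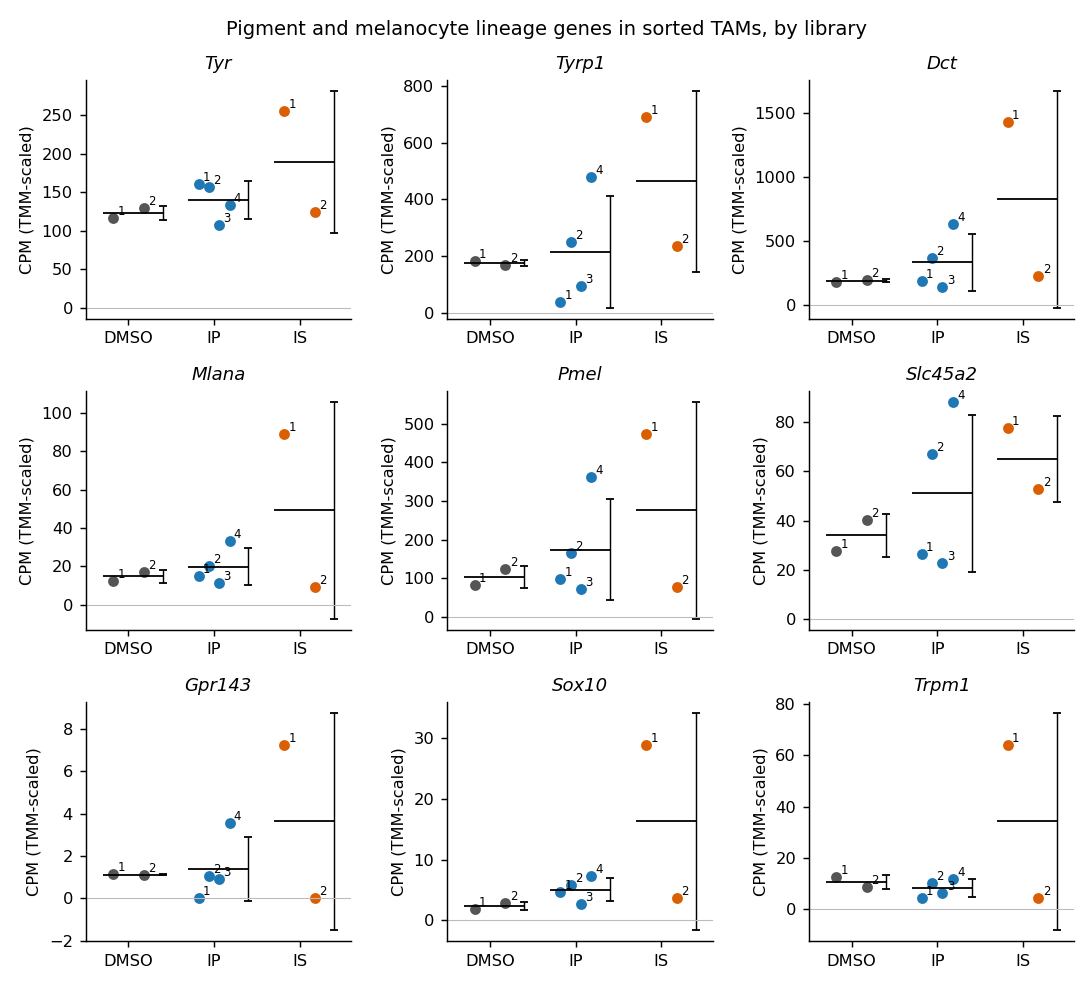
CPM (TMM-scaled, linear axis) of the 9 genes in each library. Points are libraries with their replicate number, horizontal lines are group means and vertical bars are 1 SD. IS1 was the highest library for 8 of the 9 genes, and IP4 for Slc45a2.

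Among the 3 enzymes of the tyrosinase family, Dct (dopachrome tautomerase, chromosome 14:118012790-118052244 on GRCm38) had the highest level per kb of exon in each of the 8 libraries, although in IS2 Tyrp1 had more counts than Dct (3246 against 3142). Dct was at 185 and 201 CPM in DMSO1 and DMSO2, at 193, 366, 142 and 638 CPM in IP1 to IP4, and at 1429 and 229 CPM in IS1 and IS2. Both IS libraries lay above both DMSO libraries, IS2 only 1.19 times the DMSO mean and IS1 7.41 times, while the IP libraries overlapped both other groups. Tyrp1 (tyrosinase-related protein 1, 4:80834123-80851719), the antigen bound by the melanoma antibody TA99 (which no label lists for these libraries), was at 184 and 169 CPM in the DMSO libraries, at 37.7, 248, 94.6 and 479 CPM in IP1 to IP4, and at 689 and 236 CPM in IS1 and IS2. IP1 had the lowest Tyrp1 of all libraries, 0.214 times the DMSO mean, although its Dct (193 CPM) equalled the DMSO mean. Tyr (7:87424771-87493512) was at 116 and 130 CPM in DMSO, at 161, 157, 107 and 133 CPM in IP1 to IP4, and at 255 and 125 CPM in IS1 and IS2. Tyr was high in IS1 alone, IS2 lay between the DMSO libraries, and the highest library was 2.38 times the lowest, against 10.1 times for Dct and 18.3 times for Tyrp1.

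Among the melanosome proteins, Pmel (10:128704195-128720238) was at 83.8 and 123 CPM in DMSO, at 97.5, 166, 72.1 and 362 CPM in IP1 to IP4, and at 475 and 77.4 CPM in IS1 and IS2. IS1 and IP4 stood above all other libraries, and IS2 lay below both DMSO libraries. Exons of Pmel shared 105 bases with those of Dgka, so reads there are uncertain. Mlana (19:29697824-29708634) was at 12.1 and 17.3 CPM in DMSO, at 15.2, 20.1, 11.2 and 33.2 CPM in IP1 to IP4, and at 89.4 and 9.18 CPM in IS1 and IS2. The IS libraries were the highest and the lowest of all 8 for Mlana, 9.74-fold apart. Slc45a2, a melanosome transporter (15:11000721-11029233), was at 27.8 and 40.2 CPM in DMSO, at 26.3, 66.9, 22.9 and 88.4 CPM in IP1 to IP4, and at 77.5 and 52.8 CPM in IS1 and IS2. It was the single gene with its highest value in IP4, and its IS libraries differed least, by 1.47-fold.

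Gpr143, a receptor of the melanosome membrane (X:152781921-152808646), had 17 and 19 counts in DMSO, 0, 17, 16 and 61 counts in IP1 to IP4, and 108 and 0 counts in IS1 and IS2. The libraries without a count lay at or under the floor of 3 counts, which made IS1 at least 33.3-fold higher than IS2. Trpm1 (7:64153835-64269775) was at 12.6 and 8.56 CPM in DMSO, at 4.14, 10.3, 6.44 and 11.7 CPM in IP1 to IP4, and at 64.1 and 4.22 CPM in IS1 and IS2. IS1 was 15.2 times IS2, and no other library exceeded DMSO1. Sox10 (15:79154908-79165240), the one transcription factor among the 9, was at 1.83 and 2.81 CPM in DMSO, at 4.59, 5.78, 2.65 and 7.24 CPM in IP1 to IP4, and at 28.9 and 3.64 CPM in IS1 and IS2. Both IS libraries were above both DMSO libraries, and of the IP libraries IP3 alone fell between them.

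Divided by the length of the merged exons in GENCODE vM21, the levels could be set side by side between genes. On this scale, CPM per kb averaged over the 8 libraries, Dct was highest at 192, followed by Tyrp1 at 98.2, Pmel at 85.5, Mlana at 28.6, Tyr at 24.5, Slc45a2 at 16.9, Sox10 at 2.58, Trpm1 at 1.92 and Gpr143 at 1.18. The lengths were not those of the authors' annotation. In DMSO the order was Dct (87.6 ± 5.17, SD, n = 2), Tyrp1 (64.9 ± 3.82), Pmel (48.6 ± 13.0), Tyr (20.4 ± 1.58), Mlana (16.2 ± 4.01) and Slc45a2 (11.4 ± 2.94), then Trpm1 (1.33 ± 0.362), Sox10 (0.836 ± 0.250) and Gpr143 (0.708 ± 0.0277). The intervals of 1 SD around Tyrp1 and Pmel, Tyr and Mlana, Mlana and Slc45a2, Trpm1 and Sox10, and Sox10 and Gpr143 overlapped. Within each DMSO library these pairs nevertheless kept their order, except that Gpr143 (0.727) was above Sox10 (0.659) in DMSO1. The order of neighbours was not tested.

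The spread between libraries was set against that of all 12378 genes that passed the expression filter. The SD of log2 CPM over the 8 libraries was 0.39 for Tyr, below the median of all genes (0.54) and at the 30.2 percentile. It was 0.75 for Slc45a2 (66.7 percentile), 1.04 for Pmel, 1.05 for Mlana, 1.13 for Dct, 1.202 for Sox10, 1.24 for Trpm1, 1.31 for Tyrp1 (84.9 percentile) and 2.07 for Gpr143 (97.7 percentile), whose value rests on libraries without a count. Between IS1 and IS2, 8 of the 9 genes were at least 2-fold higher in IS1, the exception being Slc45a2, where 20.6% of all genes were. Between IP4 and IP3, 7 of the 9 were at least 2-fold higher in IP4, the exceptions being Tyr (1.24-fold) and Trpm1 (1.82-fold), where 8.76% of all genes were. IP4 and IP3 were the IP libraries with the highest and lowest sum of these same 9 genes, and IS1 had the higher IS sum. The IP pair and the direction of the IS pair were thus set by the values compared. Both counts are descriptions and not tests.

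The genes did not keep 1 ratio to each other. As a share of the counts on the 9 genes, Dct made up 29.0% in DMSO2 and 45.9% in IS1 (Wilson 95% interval 45.4 to 46.3, covering counting error only). Tyr made up 29.8% in IP1 (28.9 to 30.8) but 8.19% in IS1 (7.94 to 8.44) and 7.59% in IP4 (7.29 to 7.89), the libraries with the highest summed level. Tyrp1 made up 7.002% in IP1 (6.48 to 7.57) and 32.1% in IS2 (31.2 to 33.0). These intervals did not meet, so the differences exceeded counting error. In the 2 DMSO libraries there was 0.995 and 0.842 count of Tyrp1 for each count of Dct, against 0.196 in IP1, 0.482 in IS1 and 1.03 in IS2. The ratio of Tyr to Dct was 0.630 and 0.647 in DMSO, 0.834 in IP1, 0.209 in IP4 and 0.179 in IS1. Pmel ranged from 10.5% (IS2) to 20.6% (IP4), Slc45a2 from 2.49% (IS1) to 7.16% (IS2) and Mlana from 1.24% (IS2) to 2.87% (IS1). Trpm1 was at most 2.06%, Sox10 at most 0.927% and Gpr143 at most 0.233%, each in IS1.

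**Figure D2:**
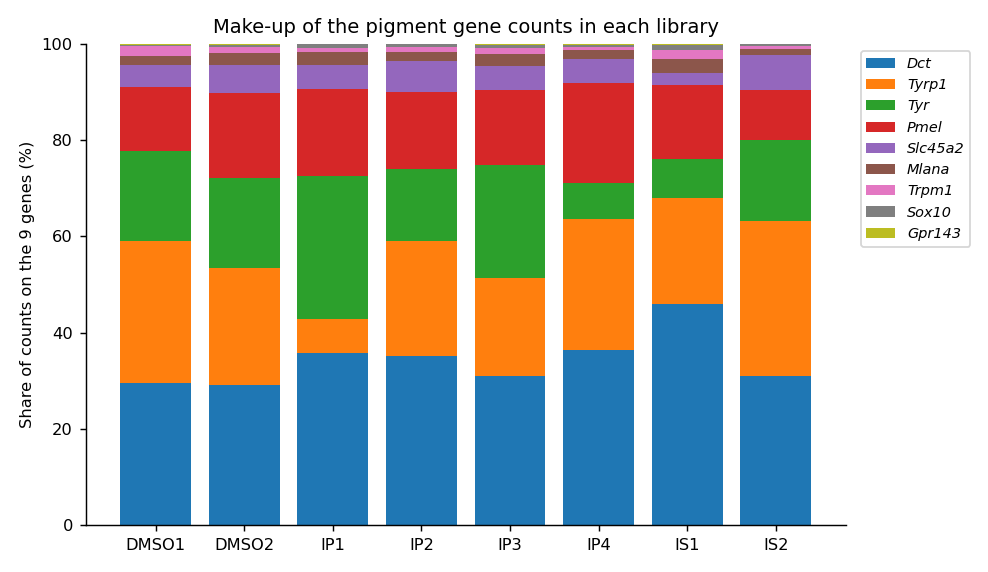
Make-up of the counts on the 9 genes in each library, as percent of their sum (vertical axis, 0 to 100). Each bar is 1 library and each colour 1 gene, and the Tyrp1 band is narrowest in IP1 (7.002%) and the Tyr band in IP4 (7.59%).

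The first comparison asked whether thiostrepton given I.P. was accompanied by other levels of the pigment genes than DMSO. With the study's criterion of an unadjusted P under 0.05 and a 2-fold change, 0 of the 9 genes passed edgeR's quasi-likelihood test, and DESeq2 and edgeR's likelihood ratio test also called 0. Of all 12174 genes tested, 1.53% were called higher and 0.468% lower. None had an adjusted p under 0.05 in the quasi-likelihood test, against 418 genes (3.43%) at an unadjusted P under 0.05, 10 genes by the likelihood ratio test and 19 by DESeq2. Fitted log2 fold changes were above 0 for 8 genes, from 0.17 (SE 0.24) for Tyr to 1.11 (SE 0.54, adjusted p = 0.98 by edgeR with Benjamini-Hochberg adjustment) for Sox10, and below 0 for Trpm1 (-0.38, SE 0.45). Their median was 0.43, beside 0.02 over all genes. Dct had a log2 fold change of 0.79 (SE 0.55), Pmel of 0.75 (SE 0.60), Slc45a2 of 0.59 (SE 0.56), Mlana of 0.43 (SE 0.44), Gpr143 of 0.29 (SE 1.29) and Tyrp1 of 0.28 (SE 0.80), each within 2 standard errors of 0. For each gene the IP libraries overlapped the DMSO libraries, whereas 7.32% of all genes had every IP library above both DMSO libraries. Without IP4 the values of Tyrp1 and Gpr143 turned to -0.47 and -0.78, and without IP3 Sox10 passed the criterion (1.32).

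The second comparison set tumor-adjacent thiostrepton against DMSO. Dct, Tyrp1 and Sox10 passed the study's criterion as higher in IS, 3 of 9 genes where 2.29% of all 11680 genes tested were called higher. The log2 fold change of Dct was 2.07 (SE 0.82, adjusted p = 0.907 by edgeR's quasi-likelihood test, unadjusted p = 0.0467). That of Tyrp1 was 1.36 (SE 0.53, adjusted p = 0.907 by edgeR, unadjusted p = 0.0460) and that of Sox10 was 2.77 (SE 1.08, adjusted p = 0.902 by edgeR, unadjusted p = 0.0444). None of the 9 had an adjusted p under 0.05, nor did any of the 11680 genes, of which 632 (5.41%) had an unadjusted P under 0.05. The likelihood ratio test gave 179 genes and DESeq2 107. The other genes had log2 fold changes of 1.71 (Mlana, SE 0.99), 1.66 (Trpm1, SE 1.14), 1.66 (Gpr143, SE 2.03), 1.38 (Pmel, SE 0.81), 0.91 (Slc45a2, SE 0.39) and 0.60 (Tyr, SE 0.42). The median of the 9 was 1.66, beside 0.02 over all genes. Dct, Tyrp1, Sox10 and Slc45a2 were higher in both IS libraries than in both DMSO libraries, as were 17.1% of all genes.

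These values rested on IS1. Without IS1, 4 of the 9 genes were above DMSO in place of 9, and none of the 3 called genes passed: the log2 fold change was 0.22 for Dct, 0.40 for Tyrp1 and 0.61 for Sox10. With IS2 alone the log2 fold change was -1.35 for Trpm1, -0.011 for Tyr, -0.45 for Pmel and -0.71 for Mlana. Gpr143 had no count in IS2. In IS1 the 9 genes were at 2.07 (Tyr) to 12.4 (Sox10) times the DMSO mean. Without DMSO1 or without DMSO2, 1 gene was called in place of 3. With scaling by library size alone no gene was called, with values of 1.93 for Dct, 1.22 for Tyrp1 and 2.62 for Sox10. Tyrp1 did not pass with all groups in 1 fit, and Pmel passed as a further gene with DESeq2. Fits that left 1 library in a group took the spread from the other group, so calls in them are not read as results about these genes.

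**Figure D3:**
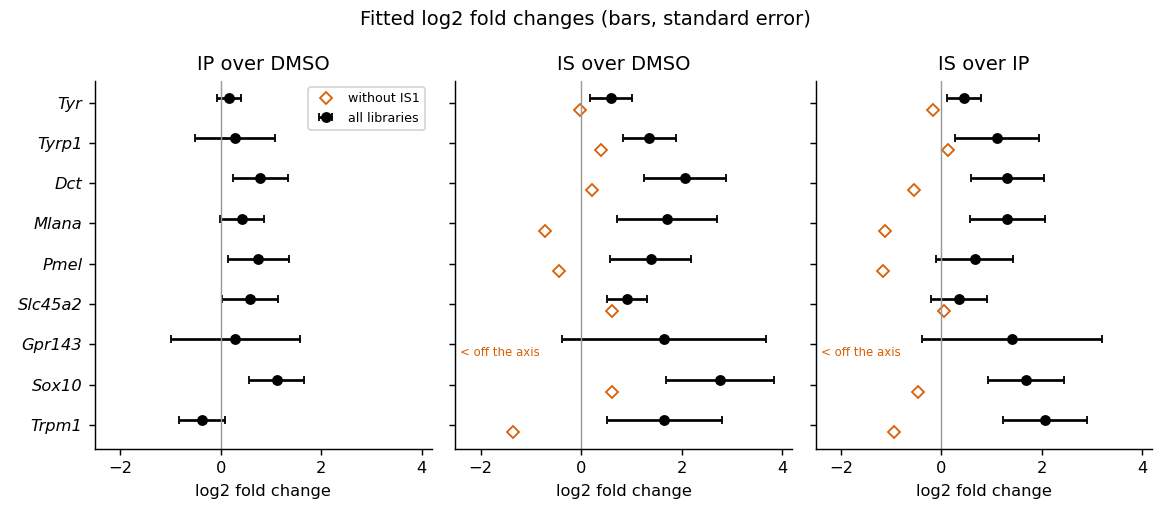
Log2 fold change of each gene (horizontal axis) in the 3 comparisons, with the standard error as bars, from all libraries (filled circles) and without IS1 (open diamonds). All 9 circles lie above 0 in both IS comparisons, while without IS1 only 4 (IS over DMSO) and 2 (IS over IP) diamonds do, with Gpr143 drawn off the axis because IS2 had no count.

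The third comparison asked whether the routes differed. IS was above IP for all 9 fitted values, from 0.35 (SE 0.55) for Slc45a2 to 2.07 (SE 0.84) for Trpm1, with a median of 1.31 beside 0.02 over all genes. Trpm1 alone passed the criterion (unadjusted p = 0.0378, adjusted p = 0.549 by edgeR's quasi-likelihood test), where 2.41% of 12206 genes were called higher. IS2 nevertheless lay within the range of the IP libraries for Trpm1, and for each of the 9 genes the groups overlapped, whereas 8.05% of all genes had both IS libraries above every IP library. Sox10 had a log2 fold change of 1.68 (SE 0.76), Dct of 1.31 (SE 0.73), Mlana of 1.31 (SE 0.75) and Tyrp1 of 1.11 (SE 0.84). Sox10 passed as a further gene without a filter on low counts, with the likelihood ratio test, with DESeq2 and with all groups in 1 fit. Without IS1, 2 of the 9 genes were above IP and none passed. Without IP4, Tyrp1 (1.87) and Dct (1.83) passed in place of Trpm1, and without any one of IP1, IP2 or IP3 no gene did. Of all genes, 0 had an adjusted p under 0.05, 1049 (8.59%) an unadjusted P under 0.05, and 265 and 234 an adjusted p under 0.05 by the likelihood ratio test and DESeq2. The comparisons with DMSO share the 2 DMSO libraries, and both IS comparisons share IS1 and IS2.

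Of 20 other genes of the melanocyte lineage, 17 were tested. IP against DMSO called 2 higher and 1 lower, where 1.53% and 0.468% of all genes were. IS against DMSO called 3 higher and 3 lower, where 2.29% and 2.77% of all genes were. IS against IP called 2 higher and 2 lower, where 2.41% and 4.64% of all genes were. None had an adjusted p under 0.05 by edgeR's quasi-likelihood test. Rab38, a GTPase that brings cargo to the melanosome, was at 11.4 and 15.3 CPM in DMSO, at 5.80, 17.6, 9.43 and 24.3 CPM in IP1 to IP4 and at 77.8 and 22.7 CPM in IS1 and IS2. It was called higher in IS against DMSO (log2 fold change 1.88, SE 0.65) and against IP (1.82, SE 0.63). Ptgds, a prostaglandin D synthase, was at 14.2 and 26.1 CPM in DMSO, at 32.6, 43.7, 23.1 and 63.3 CPM in IP1 to IP4 and at 199 and 30.01 CPM in IS1 and IS2, and was called in the same comparisons (2.47, SE 0.90, and 1.49, SE 0.65). For both genes IS2 stood above both DMSO libraries but within the IP range. Pax3, which acts upstream of Mitf, was at 3.73 and 3.62 CPM in DMSO and at 23.8 and 8.45 CPM in IS1 and IS2. Its IP libraries ran from 0.191 CPM (IP1, 3 counts, at the floor) to 11.6 CPM (IP4), so IS2 lay within the IP range. Pax3 was called higher in IS against DMSO (log2 fold change 2.10, SE 0.72) but was not called in IS against IP.

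The pigment genes outside the list followed the same libraries in part. Tspan10 reached 109 CPM and Slc24a5, an ion exchanger of the melanosome, 93.6 CPM in IS1, against 7.72 and 14.9 CPM in IS2 and 4.21 and 4.46 CPM in IP1. Neither passed the test. Mitf itself, which macrophages also use, ranged from 13.9 CPM (DMSO1) to 31.7 CPM (IP3), with 20.8 and 20.4 CPM in IS1 and IS2, and did not pass in any comparison. In all, 9 of the 20 genes were highest in IS1 and 4 in IP4. IP1 and IS2 held the highest value of 2 genes each, and DMSO2, IP2 and IP3 of 1 each. The share of all genes highest in IS1 is not given here.

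Other genes of the list were called lower, or higher in IP. Ednrb, the endothelin receptor of melanocyte precursors, was at 147 and 284 CPM in DMSO, at 66.3, 151, 63.2 and 51.7 CPM in IP1 to IP4 and at 73.0 and 109 CPM in IS1 and IS2. It was lower in IP (log2 fold change -1.38, SE 0.45) and in IS (-1.27, SE 0.44) than in DMSO. Cdh19, a cadherin of Schwann cell precursors, had 10 and 22 counts in DMSO, 0, 21, 21 and 120 counts in IP1 to IP4, and no count in IS1 or IS2. DMSO was thus at least 4.62-fold higher than IS, at low counts. Cdh19 was also called lower in IS than in IP, although IP1 had no count either. Fabp7, a fatty acid binding protein (1.91, SE 0.58), and Mcoln3, a cation channel (1.72, SE 0.73), were higher in IP than in DMSO.

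**Figure D4:**
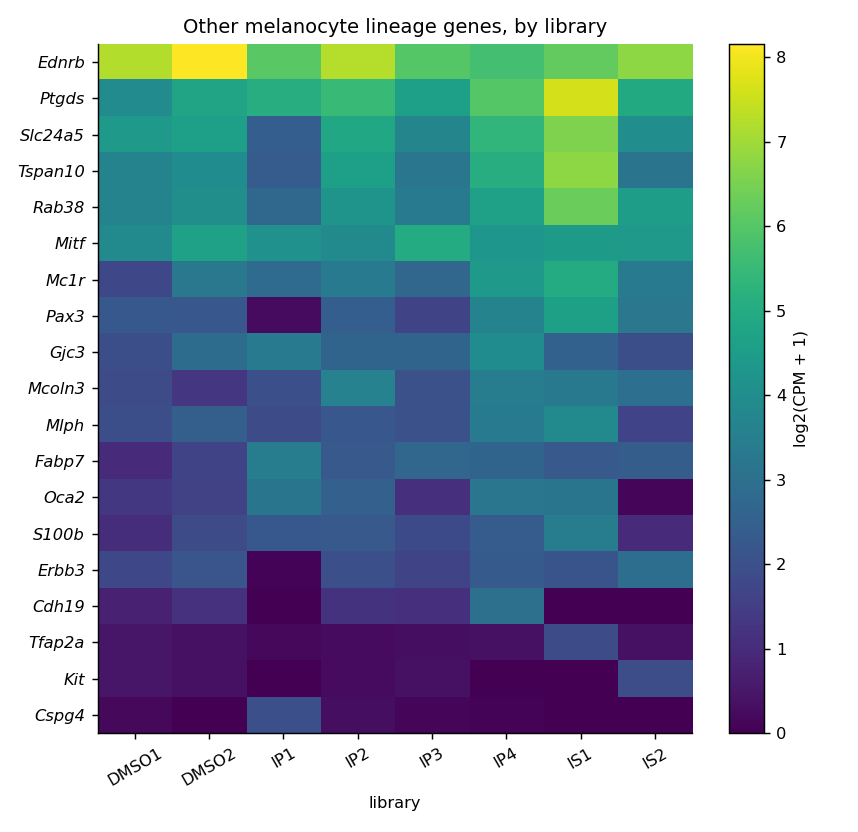
Levels of 19 other melanocyte lineage genes (rows, ordered by mean) in each library (columns), as log2(CPM + 1) by colour. Tspan10, Slc24a5, Rab38 and Ptgds are brightest in IS1, whereas Ednrb is brightest in DMSO2 and Mitf is nearly even.

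Among 23 genes that serve melanosomes and also lysosome-related organelles of blood cells, 1 was called. This was Gpnmb, higher in IP and in IS than in DMSO, where 1.53% and 2.29% of all genes were called higher. This glycoprotein, made by melanocytes and by macrophages, was at 1791 and 1579 CPM in DMSO, at 5358, 4830, 2502 and 7526 CPM in IP1 to IP4 and at 3295 and 8290 CPM in IS1 and IS2. All treated libraries lay above both DMSO libraries, where 7.32% of all genes had every IP library above DMSO and 17.1% both IS libraries. The log2 fold change of Gpnmb was 1.58 (SE 0.42, adjusted p = 0.98 by edgeR) for IP and 1.76 (SE 0.50, adjusted p = 0.747 by edgeR) for IS. Unlike the pigment genes it was higher in IS2 than in IS1. Rab32 (192 to 284 CPM) and Dtnbp1 (195 to 450 CPM), the next most abundant of these genes, did not pass.

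Markers of macrophages and of other cells also differed between libraries. Of the macrophage markers, Csf1r, the receptor for M-CSF, was lowest in IS1 (353 CPM) and highest in IS2 (1128 CPM), Itgam (CD11b) was 103 and 384 CPM there, and Mrc1, a mannose receptor, was lowest in IS1 (271 CPM) and called lower in IS than in DMSO (log2 fold change -1.06, SE 0.41). Mrc1 had an adjusted p of 0.902 by edgeR there, and 2.77% of all genes were called lower. The other 11 markers were not called in that comparison, and none of the 12 in the others. IS1 was lowest for 3 of the 12 (Itgam, Csf1r and Mrc1), and IS2 was highest for 6. Cd68 (3319 and 2879 CPM in IS1 and IS2), C1qa (1654 and 1344), C1qb (6808 and 5326), C1qc (3950 and 3507) and Fcgr1 (172 and 154) were higher in IS1. The 12 markers summed to 38701 CPM in IS1 and 41877 CPM in IS2, above the other libraries. The 7 neutrophil markers with a row summed to 4.03 to 36.5 CPM in 7 libraries and to 254 CPM in IS2, where each was highest (S100a8 64.8, S100a9 60.2 and Ngp 60.3 CPM). Of these 7, 5 were called higher in each IS comparison, where 2.29% (IS against DMSO) and 2.41% (IS against IP) of all genes were called higher. The 10 T, NK and B cell markers summed to 3.51 to 18.9 CPM in DMSO and IP, and to 48.1 and 39.6 CPM in IS1 and IS2. Gzma reached 14.9 and 6.92 CPM there and Nkg7 8.35 and 11.4 CPM, while Cd4 was at or under the floor in IS1 and at 11.7 CPM in IS2. Of these 10, 7 were tested in each IS comparison. IS against DMSO called 3 of them higher (Gzma and Cd79a among them) and IS against IP 5, beside the same shares of all genes. The part of these cells in the pigment values was not tested.

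Markers of keratinocytes and fibroblasts were near the floor, and those of endothelial cells were low. Of 8 keratinocyte markers, 7 (Krt5 and Krt14 among them) had no count in any library and Krt10 was at most 1.82 CPM. The 7 fibroblast markers summed to 0 to 1.23 CPM, with Col3a1 at 1.23 CPM in IP4 and Pdgfrb and Lum at most 0.226 and 0.437 CPM. The 6 endothelial markers summed to 3.62 to 10.7 CPM (Vwf at most 6.06, Kdr 7.24 and Pecam1 7.36 CPM). Of the Schwann cell markers, Pmp22 (597 to 1142 CPM), Egr2 (41.0 to 288 CPM) and Mbp (15.5 to 41.8 CPM), which other cells also use, were the most abundant. Egr2 was called higher in IS than in DMSO (1.73, SE 0.64, adjusted p = 0.873 by edgeR) and than in IP (1.42, SE 0.52, adjusted p = 0.492 by edgeR). In these comparisons 2.29% and 2.41% of all genes were called higher.

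The genes whose pattern was most like that of the 9 were sought among 12369 other genes, by Pearson's correlation of log2 CPM with the log2 of the summed CPM over the 8 libraries. The points share libraries of 3 treatments, and IS1 and IP4 lie apart from the rest, so the values are descriptions. The 10 highest were Fam174b (0.98), Aebp1 (0.98), Cpe (0.98), Tspan15 (0.96), Fbln5 (0.96), Smtnl1 (0.96), Serpinh1 (0.96), Fkbp9 (0.95), Fam212b (0.95) and Ecscr (0.95), with Spearman values of 0.74 to 0.98. Cpe is carboxypeptidase E, Fbln5 the elastic fibre protein fibulin-5, and Serpinh1 a collagen chaperone. Fbln5 was at 17.4 and 18.9 CPM in DMSO, at 6.57, 29.5, 10.7 and 59.9 CPM in IP1 to IP4 and at 127 and 24.7 CPM in IS1 and IS2, low in IP1 as Tyrp1 was. Cpe was at 14.6 and 18.6 CPM in DMSO, at 19.3, 30.2, 13.8 and 53.6 CPM in IP1 to IP4 and at 70.3 and 21.2 CPM in IS1 and IS2. Serpinh1 reached 119 CPM in IS1 but at most 16.3 CPM elsewhere, and Smtnl1 and Ecscr were at most 3.16 and 1.68 CPM. Without IS1 the 10 correlations were 0.87 to 0.96, and 4 of these genes (Fam174b, Aebp1, Cpe and Fkbp9) were among the 10 highest.

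Among the 9 genes themselves, which are part of the sum, Dct had the highest correlation with it (0.99), followed by Pmel (0.96), Mlana (0.93), Sox10 (0.90), Slc45a2 (0.87), Tyrp1 (0.86), Trpm1 (0.83), Tyr (0.77) and Gpr143 (0.72). Without IS1 the value of Tyr was 0.32 and that of Dct 0.99. Of the other lineage genes Tspan10 (0.94), Ptgds (0.92), Rab38 (0.91), Mlph (0.90), Slc24a5 (0.88), Mc1r (0.87) and Pax3 (0.77) had high values, whereas Mitf was at -0.15 and Ednrb at -0.26.

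**Figure D5:**
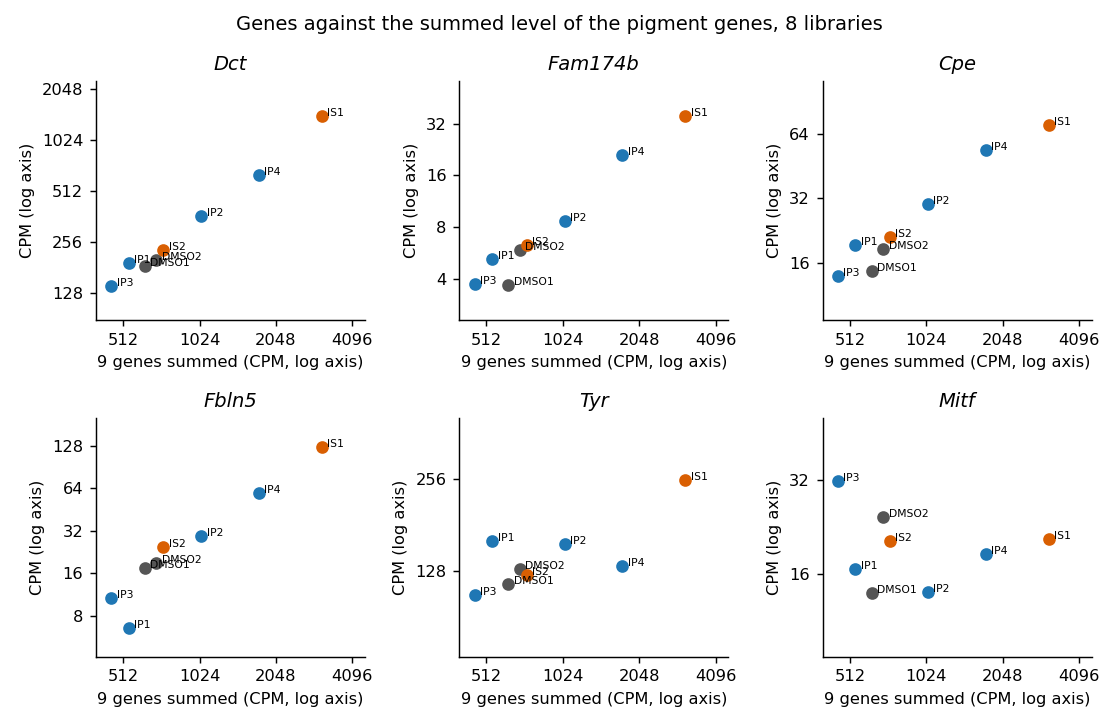
Level of 6 genes (vertical axis, CPM, log axis) against the summed level of the 9 pigment genes (horizontal axis, CPM, log axis), 1 point for each of the 8 libraries, grey for DMSO, blue for IP and orange for IS. Dct, Fam174b, Cpe and Fbln5 are highest in IS1 and next in IP4, as the sum is, Tyr stands apart at IS1 only, and Mitf shows no order (Pearson -0.15).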

How the data were processed

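RNA of sorted TAMs was sequenced in 8 libraries (2 DMSO, 4 IP and 2 IS), made with an mRNA kit. According to the methods of the study, reads were aligned to mm10 and counted per gene with bowtie2 2.2.3 and RSEM 1.2.15. The processing notes of the submitters name TopHat2 and edgeR in addition, and the annotation and the use of strand are not given in the sources used here. The deposited values are raw counts per gene symbol, whole numbers without normalization, for 23412 genes. A further row that names no gene held 0 counts (0% of the total) and was left out.

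For every comparison the libraries of its 2 groups were fitted, over all genes, with edgeR 4.0.16 in R 4.3.3 (filterByExpr with a minimum count of 10 and total of 15, TMM factors, estimateDisp, glmQLFit, two-sided glmQLFTest), without covariates. A gene was called at an unadjusted P under 0.05 with a 2-fold change, the criterion of the study, and Benjamini-Hochberg adjusted p-values over all genes tested are given beside it. The standard errors given were derived from the test, as the size of the log2 fold change divided by the square root of its F statistic. CPM are TMM-scaled over the 8 libraries, and correlations used log2 CPM with a prior count of 2. Scripts were tested on simulated data with 200 changed genes in each comparison.

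The 9 genes and the marker lists were chosen with earlier results of these data known. Named in the text were the 9 genes, the most abundant genes of each list (5 for the other lineage genes, otherwise 3), called genes of a list, and the 10 genes most like the sum. Others (Mitf, Mc1r, Mlph, Csf1r, Itgam, Cd68, C1qa, Fcgr1) were named after their values were seen. Alternatives were another filter, RLE factors or library size alone, the likelihood ratio test, DESeq2 1.42.0, all groups in 1 fit, a replicate block, and each library left out. Positions are from GENCODE vM21 on GRCm38. Promoter sequences are from RefSeq (GRCm38.p6), and motifs were sought on both strands in the 250 bases before each start. Depth was 14127506 to 17577466 counts per library, and intervals and the floor of 3 counts cover counting error only. Ly6g was not analysed here, and a few genes of the lists are counted but not reported here by name.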

Additional observations from a re-analysis of the deposited data

Results flagged for a closer look

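In the IP group, the only one with 4 libraries, 55 sets of values were checked for a library whose gap to its nearest neighbour exceeded the 95% critical value of Dixon's ratio for 4 values, and 6 did so. For independent, normally distributed values chance alone gives about 1 in 20. The 55 sets come from the same 4 libraries and include values near 0, so the 6 cannot be set against that rate. Ednrb was at 151 CPM in IP2, with the other IP libraries at 51.7 to 66.3 CPM. Slc45a2 took 6.42% of the counts on the 9 pigment genes in IP2, with 4.87% to 5.03% in the others. Aebp1, among the genes most like the pigment genes, was at 14.8 CPM in IP4 and at 1.64 to 3.53 CPM in the others. The remaining flags were at low levels: Col3a1 at 1.23 CPM and Gzma at 0.350 CPM in IP4, and Ngp at 2.17 CPM in IP1 with 0 to 0.350 CPM in the others. Col3a1 and Gzma had no count in the other IP libraries, which fixes their ratio at 1 whatever the count in IP4. Groups of 2 libraries could not be checked in this way.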

How the results depend on the processing

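Direction and call were stable for Tyr, Dct, Mlana, Pmel, Slc45a2 and Trpm1 in IP against DMSO under all alternatives run. The number of pigment genes called was 0 for IS against DMSO and 0 for IS against IP with library size alone. For IS against DMSO it was 4 by DESeq2 (Pmel added), 2 with all groups in 1 fit (without Tyrp1) and 2 with the replicate block (without Sox10), and for IS against IP 2 without a filter, 2 by the likelihood ratio test, 2 by DESeq2 and 2 with all groups in 1 fit. Leaving out 1 IP library gave 0 to 1 called gene for IP against DMSO. With 1 library left out, 6 to 8 genes were above the reference group for IP against DMSO. The numbers were 4 to 9 for IS against DMSO and 2 to 9 for IS against IP. Calls of pigment genes in fits that left 1 library in a group are not counted here. Log2 fold changes that reversed when 1 library was left out had these ranges. In IP against DMSO, Tyrp1 ran from -0.47 (without IP4) to 0.64 and Gpr143 from -0.78 (without IP4) to 0.70. In IS against DMSO, with the low end without IS1, Tyr ran from -0.011 to 0.99, Mlana from -0.71 to 2.54, Pmel from -0.45 to 2.14, Trpm1 from -1.35 to 2.54 and Gpr143 from -7.12 to 2.63. In IS against IP, again with the low end without IS1, Tyr ran from -0.16 to 0.87, Dct from -0.55 to 2.09, Mlana from -1.12 to 2.16, Pmel from -1.17 to 1.44, Sox10 from -0.48 to 2.51, Trpm1 from -0.95 to 2.97 and Gpr143 from -7.48 to 2.48. The values of Gpr143 are set by a library without a count and are no bound. Over all genes, calls at unadjusted P numbered 160 for IP against DMSO with all groups in 1 fit, and ran from 116 to 361, 113 to 3432 and 632 to 2115 when 1 library was left out (2989 without IS1 and 3432 without IS2 for IS against DMSO). Genes with an adjusted p under 0.05 numbered 10 and 19 for IP against DMSO by the likelihood ratio test and DESeq2. For IS against DMSO they numbered 10 without a filter, 179 by the likelihood ratio test, 107 by DESeq2, 4 with all groups in 1 fit and 0 to 2407 with 1 library left out. For IS against IP they numbered 265, 234, 2 and 0 to 138 by the likelihood ratio test, DESeq2, 1 fit and leaving out 1 library. The replicate numbers did not pair the libraries: deviations of libraries with the same number correlated at -0.13 to 0.07. With the number as a replicate block, 19 genes had an adjusted p under 0.05 for IS against DMSO and 1 for IS against IP, where calls at unadjusted P fell to 391 and 0 pigment genes were called; Tyrp1 (-0.87) and Gpr143 (-1.96) reversed in IP against DMSO and Gpr143 (-0.71) in IS against DMSO. The block with crossed numbers for IS against DMSO, chosen after the data were seen, gave 2 genes with an adjusted p under 0.05, with Gpr143 at -0.65. The 10 genes most like the sum kept 3 members with Spearman's correlation and 4 without IS1. The cause of these changes was not tested. DMSO and IS had 2 libraries each, and the effect of depth on the fits was not tested. Counts were lowest for Gpr143 (0 to 108) and Sox10 (27 to 429).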
